A study of Mus musculus with 24 samples.

Results

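The caveolae genes comprised 7 members, namely Cav1, Cav2, Cavin1, Cavin2, Cavin3, Ehd2 and Pacsin2, chosen by matching the RefSeq transcript that the array gives for each probe to these gene symbols. They were 7 of the 23787 genes with such a probe and 7 of the 16842 genes that could be tested. The members had 11 probes in all, and all 11 passed the filter, which kept a probe when 2 or more of the 4 arrays of some group had it well above background. Each gene was read from its probe with the highest mean, which was well above background on all 24 arrays for every member, and the other 4 probes, of Cav1, Cav2 and Cavin1, are given beside it.

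Caveolae are small flask-shaped pits of the plasma membrane. Caveolins insert into the inner leaflet and form the scaffold of the pit, cavins assemble around it as a coat, the ATPase EHD2 holds the neck at the cell surface, and the F-BAR protein PACSIN2 (also called syndapin 2) helps to bend the membrane. Caveolae are known for buffering membrane tension by flattening when cells swell or stretch, and caveolin-1 binds cholesterol, the substrate of steroid synthesis in Leydig cells.

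The samples came from TM3, an established mouse Leydig cell line, so each group is a culture of a single line and not testis tissue. Cells were lifted into suspension and placed in electroporation cuvettes, where they received either no pulses (sham) or a nanosecond pulsed electric field (nsPEF) of 80 pulses of 60 ns and 5.5 kV, which gave 14 kV/cm at 26.4 pulses per minute over 180 s. RNA was taken at 0, 4 and 24 h after sham (S0, S4, S24) or nsPEF (E0, E4, E24), as 4 biological replicates per group, each sample on its own single-colour array (6 groups). Both treatments share the lifting, washing, straining and cuvette steps, so a change with time in the sham cells follows this handling as well as culture time, and since 1 slide carried all 8 arrays of a time, an effect of time and one of the slide cannot be told apart. On each of the 3 slides the nsPEF samples took the second row of arrays, so treatment and place on the slide cannot be told apart either.

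Values are log2 processed signals minus the 75th percentile of the same array, and every change below is relative to that percentile. The 75th percentile signal lay between 253.5 and 532.7 units on the 12 sham arrays and between 201.8 and 336.4 units on the 12 nsPEF arrays. On the sham arrays 57.5% to 62.1% of the probes were well above background, against 51.2% to 57.2% on the nsPEF arrays, so the ranges of the treatments did not overlap, and the part of this difference in the results was not tested. Of 7 Leydig cell markers on the array, Star, Cyp17a1 and Nr5a1 were well above background on all 24 arrays, while Cyp11a1, Hsd3b1, Hsd3b6 and Lhcgr were not on any array. The fibroblast genes Col1a1, Col1a2 and Pdgfra, the Sertoli cell genes Wt1 and Sox9 and the smooth muscle gene Acta2 were also well above background on all arrays. So were the endothelial gene Pecam1, the epithelial genes Krt8 and Krt18 and the macrophage gene Csf1r. The Sertoli cell genes Amh and Fshr were so on 2 and 1 of the 24 arrays, and the smooth muscle genes Myh11 and Des on 17 and 22. For the germ cell genes Ddx4, Dazl and Sycp3 it was 16, 2 and 1 arrays. The epithelial genes Epcam and Cdh1 were so on 2 and 1 arrays, and the macrophage genes Ptprc and Adgre1 on 1 each. The endothelial genes Cdh5, Tek and Kdr and the fibroblast gene Thy1 were not on any.

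The upstream sequences of Cav1, Cav2, Cavin1 and Cavin2, the genes of the scaffold and the main coat, are shown because Cavin2 moved against the other 3 in the same cells. Each line holds the 250 bases before a transcription start of the RefSeq annotation of GRCm38.p6, read 5′ to 3′ on the strand of the gene, and capitals mark motif matches on either strand. The motifs searched were the GC box (GGGCGG), the CCAAT box (CCAAT), the AP-1 site (TGACTCA), the TATA box (TATAAA) and the CArG box, and no 2 matches overlapped. The windows are chr6:17306085-17306334 on the plus strand for the first Cav1 start, chr6:17280935-17281184 on the plus strand for Cav2, chr11:100970618-100970867 on the minus strand for the first Cavin1 start and chr1:51288876-51289125 on the plus strand for Cavin2.
Cav1: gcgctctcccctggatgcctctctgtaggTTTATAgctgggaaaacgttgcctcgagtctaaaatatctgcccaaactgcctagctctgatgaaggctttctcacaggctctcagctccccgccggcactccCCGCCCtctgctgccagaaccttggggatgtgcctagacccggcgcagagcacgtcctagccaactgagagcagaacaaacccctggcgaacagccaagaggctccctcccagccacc
Cav2: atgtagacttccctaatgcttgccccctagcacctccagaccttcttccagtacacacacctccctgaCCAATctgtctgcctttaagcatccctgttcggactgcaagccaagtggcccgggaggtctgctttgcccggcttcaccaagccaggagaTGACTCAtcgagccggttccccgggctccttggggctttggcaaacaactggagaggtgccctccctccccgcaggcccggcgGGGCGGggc
Cavin1: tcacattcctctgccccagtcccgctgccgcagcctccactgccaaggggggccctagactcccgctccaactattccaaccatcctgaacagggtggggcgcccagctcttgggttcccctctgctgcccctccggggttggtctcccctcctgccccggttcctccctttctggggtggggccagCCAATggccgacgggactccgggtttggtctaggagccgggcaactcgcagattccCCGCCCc
Cavin2: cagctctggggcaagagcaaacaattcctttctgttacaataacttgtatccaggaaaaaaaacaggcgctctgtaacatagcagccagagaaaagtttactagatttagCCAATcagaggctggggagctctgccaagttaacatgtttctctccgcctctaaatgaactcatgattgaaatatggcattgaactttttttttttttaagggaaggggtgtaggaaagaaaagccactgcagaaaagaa

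Among all 32851 promoters of the same length, 32.7% held a GC box, 33.8% a CCAAT box, 4.46% an AP-1 site, 12.4% a TATA box and 1.47% a CArG box. A GC box began 118 bases before the first Cav1 start, none was found before the second Cav1 start, and others began 9 bases before the Cav2 start and 7 bases before the Cavin1 start, and Cavin2 had no match to it in this window. The CCAAT box was present in Cav2, Cavin1 and Cavin2, at 182, 63 and 140 bases before the start, and the AP-1 site stood in Cav2 alone among these 4, at 92 bases. No CArG box was found in any of the 10 windows of the members. The letters of the TATA box occurred in Cav1, on the opposite strand and 221 bases before the first start, and not before the second. The Cavin2 window was poor in G and C (40.4%), against 59.6% for Cav1, 62% for Cav2 and 67.6% for Cavin1. These matches describe the letters only. The Cav2 and Cav1 genes lie on the same chromosome, and 17205 bases separate the end of Cav2 from the start of Cav1. In GRCm38.p6 the genes span chr6:17306335-17341328 (Cav1), chr6:17281185-17289130 (Cav2), chr11:100956736-100970617 (Cavin1), chr1:51289126-51302960 (Cavin2), chr7:105480616-105482197 (Cavin3), chr7:15946963-15967535 (Ehd2) and chr15:83375607-83464610 (Pacsin2). Promoters were matched for 6 of the 7 members, with 10 starts, and Cavin3 is named only.

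The first question was how the caveolae genes behaved with time after the cells had been handled. In sham cells all 7 members changed between 0 and 4 h, and they split. Cav1, Cav2 and Cavin1, which make the scaffold and the core of the coat, rose, Ehd2 and Pacsin2 rose slightly, and the cavins Cavin2 and Cavin3 fell. This count of 7 has to be read against a background in which 65.4% of all tested genes were called in the same comparison (30.8% higher and 34.6% lower), so most genes of these cells moved and the count is no result particular to the members. The median difference of the members was 0.15, against −0.04 over all genes tested, and the sizes of the single changes are therefore given with each gene.

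**Figure D1:**
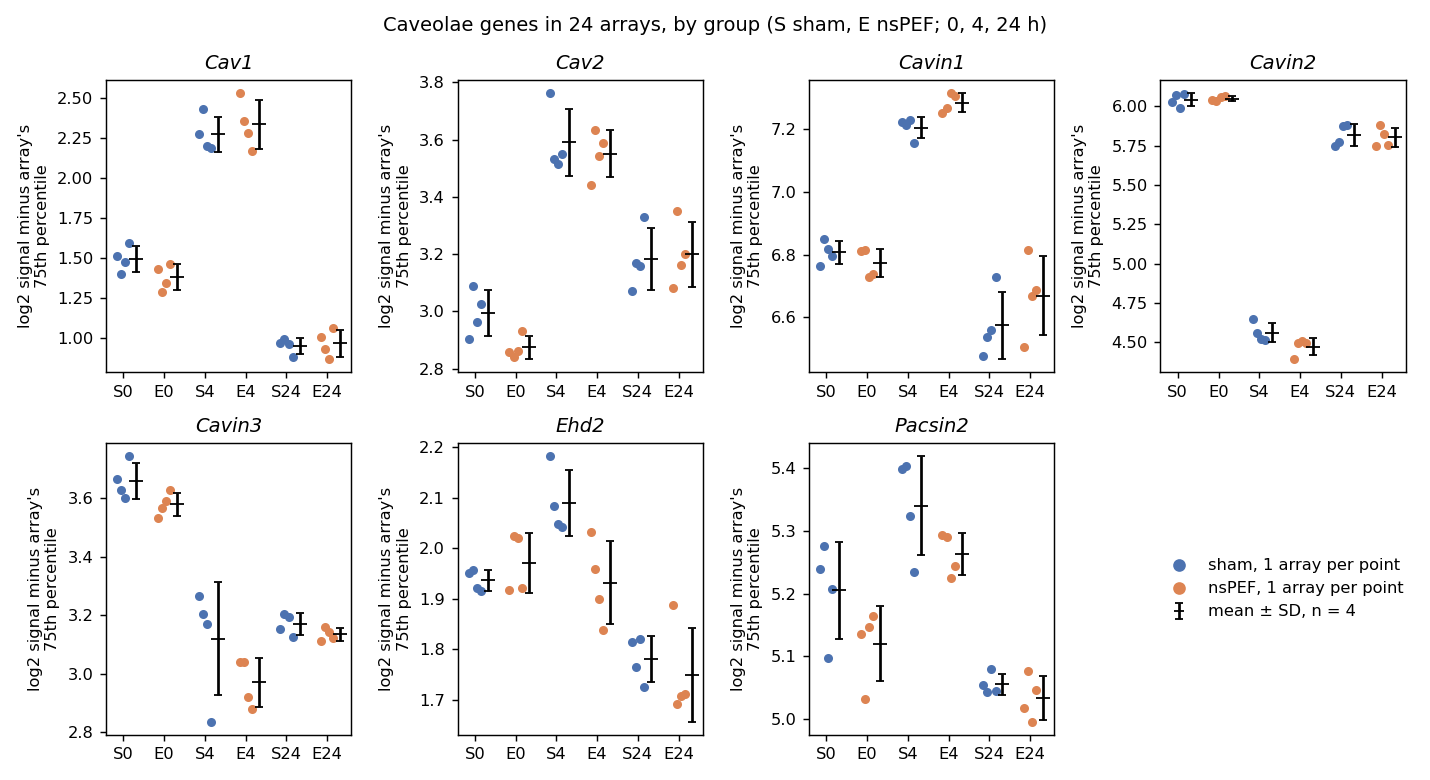
Values of the 7 caveolae genes on the 24 arrays, as log2 signal minus the 75th percentile of the array, with 1 point per array and the mean ± SD of 4 arrays beside each group. Each panel has its own vertical scale, and levels of different genes cannot be compared. Cav1, Cav2 and Cavin1 stand highest at 4 h and Cavin2 lowest at 4 h, in sham and nsPEF cells alike, with nsPEF and sham of the same time close to each other.

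Cav1 encodes caveolin-1, the integral protein without which caveolae do not form in most cells. On the log2 scale its values were 1.51, 1.40, 1.48 and 1.59 in S0, 2.27, 2.43, 2.20 and 2.18 in S4, and 0.97, 0.99, 0.96 and 0.88 in S24. In the nsPEF cells they were 1.43, 1.29, 1.34 and 1.46 in E0, 2.53, 2.36, 2.28 and 2.17 in E4, and 1.00, 0.93, 0.87 and 1.06 in E24. The 3 time points did not overlap in either treatment, with 4 h highest and 24 h lowest, and at each time point the sham and nsPEF values overlapped. In sham cells Cav1 rose by 0.77 ± 0.07 (SE, n = 4 and 4; 1.71-fold; adjusted p = 9.25e-09, limma) from 0 to 4 h. It then fell by 1.32 ± 0.07 (adjusted p = 3.63e-12, limma) from 4 to 24 h. At 24 h it lay 0.54 ± 0.07 below 0 h (adjusted p = 6.09e-06, limma). When the arrays were scaled on their spike-in spots it lay 0.11 above 0 h and was not called (adjusted p = 0.401, limma). That scaling moved the median of all tested probes to 0.65, and Cav1 lay 0.54 below that median. In nsPEF cells the differences were 0.95, −1.36 and −0.41 for the same 3 steps, all called, and the last was −0.02 and not called with spike-in scaling. Among all genes tested Cav1 ranked 1762 by the size of its fall from 4 to 24 h in sham cells, which is within the largest 10.5%.

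The second Cav1 probe behaved alike. Its group means were 0.38 in S0, 1.15 in S4, 0.03 in S24, 0.33 in E0, 1.16 in E4 and −0.07 in E24. All 6 comparisons with time were called in the direction of the brighter probe, with 0.77 from 0 to 4 h and −1.12 from 4 to 24 h in sham cells.

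Cav2 encodes caveolin-2, which joins caveolin-1 in the scaffold and needs it to reach the cell surface. Its values were 2.90, 3.09, 2.96 and 3.03 in S0, 3.76, 3.53, 3.52 and 3.55 in S4, and 3.07, 3.17, 3.16 and 3.33 in S24. In nsPEF cells they were 2.86, 2.84, 2.86 and 2.93 in E0, 3.44, 3.63, 3.54 and 3.59 in E4, and 3.08, 3.35, 3.16 and 3.20 in E24. All arrays at 4 h stood above all others, and those of E24 above those of E0, while S24 and S0 touched. The rise from 0 to 4 h was 0.60 ± 0.07 in sham (1.51-fold; adjusted p = 2.37e-07, limma) and 0.68 ± 0.07 in nsPEF cells (1.60-fold; adjusted p = 3.65e-08, limma). From 4 to 24 h Cav2 fell by 0.41 (sham) and 0.35 (nsPEF), which became 0.20 and 0.0062 higher with spike-in scaling. Relative to the 75th percentile it was the one member still above its 0 h level at 24 h, by 0.19 ± 0.07 in sham (adjusted p = 0.039, limma) and by 0.33 ± 0.07 in nsPEF cells (adjusted p = 0.00082, limma). The sham value did not pass the threshold in 9 of the 12 fits that left out 1 array or 1 replicate number, with adjusted p up to 0.195.

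Of the other Cav2 probes, the brighter gave 0.73 from 0 to 4 h, 0.38 from 0 to 24 h and −0.35 from 4 to 24 h in sham cells, all called. The dimmest probe, which reports another transcript, was well above background on 20 of 24 arrays and on 1 of 4 in E0, and none of its comparisons was called. Its sham difference from 4 to 24 h, 0.12 with an adjusted p of 0.809 (limma), had the opposite sign to the brighter probes.

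Cavin1 (older name Ptrf) encodes the core protein of the coat, which is required for caveolae to form. Its values were 6.76, 6.85, 6.82 and 6.79 in S0, 7.23, 7.21, 7.23 and 7.16 in S4, and 6.48, 6.54, 6.56 and 6.73 in S24. In nsPEF cells they were 6.81, 6.81, 6.73 and 6.74 in E0, 7.25, 7.27, 7.32 and 7.31 in E4, and 6.50, 6.81, 6.67 and 6.69 in E24. The 4 h arrays stood above all others in both treatments, S24 lay below S0, and E24 overlapped E0. Cavin1 rose from 0 to 4 h by 0.40 ± 0.06 in sham (1.32-fold; adjusted p = 4.29e-06, limma) and by 0.51 ± 0.06 in nsPEF cells (1.43-fold; adjusted p = 1.38e-07, limma). The latter was −0.83 when the bright probe and a dim second probe were averaged. In that average E0 replicate 1 rested on the bright probe alone, since the dim probe had no unmarked spot there. Cavin1 fell from 4 to 24 h by 0.63 and 0.62, of which the sham difference was −0.03 and not called with spike-in scaling. At 24 h it was 0.23 below 0 h in sham cells (adjusted p = 0.00333, limma). This became 0.42 above with spike-in scaling, and −0.06 and not called with quantile scaling. The sham fall was thus called in one direction or the other or not at all by scaling, and the nsPEF difference of −0.10 was not called (adjusted p = 0.149, limma). The latter was called at 0.29 with spike-in scaling (adjusted p = 0.0011, limma), at −0.20 with array row centring (adjusted p = 0.00746, limma) and at −0.15 without E24 replicate 2 (adjusted p = 0.0381, limma). The dim second probe, well above background on all 23 arrays where it had an unmarked spot, gave 0.42 (adjusted p = 0.0291, limma) and −0.80 (adjusted p = 0.000272, limma) for the sham steps from 0 to 4 h and from 4 to 24 h, and 0.12 (adjusted p = 0.583, limma) for the nsPEF rise.

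Cavin2 (older name Sdpr), a phosphatidylserine-binding subunit of the coat that can drive membrane tubules, changed most of the 7 from 0 to 4 h. Its values were 6.03, 6.07, 5.99 and 6.08 in S0, 4.65, 4.56, 4.52 and 4.52 in S4, and 5.75, 5.77, 5.87 and 5.88 in S24. In nsPEF cells they were 6.04, 6.03, 6.06 and 6.06 in E0, 4.40, 4.49, 4.51 and 4.49 in E4, and 5.75, 5.88, 5.82 and 5.76 in E24. Every 4 h array lay far below every other array, and the 24 h arrays lay between them and the 0 h arrays. Cavin2 fell from 0 to 4 h by 1.48 ± 0.05 in sham (0.358-fold; adjusted p = 3.37e-16, limma) and by 1.58 ± 0.05 in nsPEF cells (0.335-fold; adjusted p = 1.27e-16, limma). By size this placed it among the largest 7.92% and 7.91% of all genes tested. It rose again from 4 to 24 h by 1.26 ± 0.05 in sham (2.39-fold; adjusted p = 8.46e-15, limma) and by 1.33 ± 0.05 in nsPEF cells (2.51-fold; adjusted p = 4.05e-15, limma). Both steps kept their direction and their calls under each alternative scaling. At 24 h Cavin2 was 0.22 below 0 h in sham and 0.25 below in nsPEF cells, both called, and these became 0.43 and 0.14 above with spike-in scaling. With quantile scaling the sham difference was −0.07 and not called.

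Cavin3 (older name Prkcdbp) encodes the cavin that binds protein kinase C delta and has been linked to signalling at caveolae. Its values were 3.67, 3.63, 3.60 and 3.74 in S0, 3.27, 3.21, 3.17 and 2.84 in S4, and 3.15, 3.21, 3.19 and 3.12 in S24. In nsPEF cells they were 3.53, 3.57, 3.59 and 3.63 in E0, 3.04, 3.04, 2.92 and 2.88 in E4, and 3.11, 3.16, 3.14 and 3.12 in E24. The 0 h arrays stood above all others and S4 replicate 4, which was also the brightest array, stood lowest. Cavin3 fell from 0 to 4 h by 0.54 ± 0.07 in sham (0.688-fold; adjusted p = 8.51e-07, limma) and by 0.61 ± 0.07 in nsPEF cells (0.656-fold; adjusted p = 1.58e-07, limma). At 24 h it was 0.49 below 0 h in sham (adjusted p = 1.2e-05, limma) and 0.44 below in nsPEF cells (adjusted p = 3.35e-05, limma). With spike-in scaling these were 0.16 above and 0.05 below, neither of them called, and lay 0.49 and 0.51 below the median of all tested probes. From 4 to 24 h the sham difference of Cavin3 was 0.05 (adjusted p = 0.572, limma) but depended on the scaling, at 0.23 with quantile scaling (adjusted p = 0.00184, limma), 0.21 with the 75th percentile taken over probes above background on all arrays (adjusted p = 0.00467, limma) and 0.65 with spike-in scaling (adjusted p = 2.1e-05, limma). The nsPEF rise of 0.16 (adjusted p = 0.0481, limma) was lost in 9 of the 12 fits that left out 1 array or 1 replicate number, and with the replicate number as a block (adjusted p = 0.0527, limma).

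Ehd2, whose product stabilises caveolae at the surface, moved little. Its values were 1.95, 1.96, 1.92 and 1.92 in S0, 2.18, 2.08, 2.05 and 2.04 in S4, and 1.82, 1.76, 1.82 and 1.72 in S24. In nsPEF cells they were 1.92, 2.02, 2.02 and 1.92 in E0, 2.03, 1.96, 1.90 and 1.84 in E4, and 1.89, 1.69, 1.71 and 1.71 in E24. S4 stood above S0 and S24 below it, whereas E4 overlapped E0. The sham rise to 4 h was 0.15 ± 0.05 (1.11-fold; adjusted p = 0.0162, limma) and was not called with quantile or spike-in scaling, and the nsPEF difference was −0.04 (adjusted p = 0.542, limma). That nsPEF difference was called at −0.13 with the 75th percentile over probes above background on all arrays (adjusted p = 0.0285, limma) and at −0.23 with array row centring (adjusted p = 0.0222, limma). At 24 h Ehd2 was below 0 h by 0.16 in sham (adjusted p = 0.0241, limma, with the call lost in 7 of 12 such fits) and by 0.22 in nsPEF cells (adjusted p = 0.00196, limma), which became 0.50 and 0.17 above with spike-in scaling. The falls from 4 to 24 h were 0.31 in sham and 0.18 in nsPEF cells, both called, and became 0.30 and 0.17 higher with that scaling.

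Pacsin2 had the smallest change of the 7 from 0 to 4 h in sham cells. Its values were 5.24, 5.28, 5.10 and 5.21 in S0, 5.40, 5.40, 5.32 and 5.23 in S4, and 5.05, 5.04, 5.08 and 5.04 in S24. In nsPEF cells they were 5.14, 5.03, 5.15 and 5.16 in E0, 5.29, 5.29, 5.23 and 5.24 in E4, and 5.02, 5.08, 5.00 and 5.05 in E24. S24 lay below all arrays of S0 and S4, E4 stood above E0 and E24, and S4 overlapped S0 as E24 overlapped E0. The rise to 4 h was 0.13 ± 0.05 in sham (1.10-fold; adjusted p = 0.0167, limma) and 0.14 ± 0.05 in nsPEF cells (adjusted p = 0.0115, limma), and with quantile scaling it was 0.0015 and −0.04. The sham call was lost in 5 of 12 fits without an array or replicate number. Pacsin2 fell from 4 to 24 h by 0.28 in sham and 0.23 in nsPEF cells, both called, and these became 0.32 and 0.13 higher with spike-in scaling. With quantile scaling they were −0.03 (adjusted p = 0.541, limma) and 0.0016 (adjusted p = 0.977, limma). The difference between 24 and 0 h was −0.15 in sham cells (adjusted p = 0.0157, limma) and −0.09 in nsPEF cells (adjusted p = 0.142, limma). The sham value was 0.50 with spike-in scaling, and −0.03 and not called with quantile scaling.

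**Figure D2:**
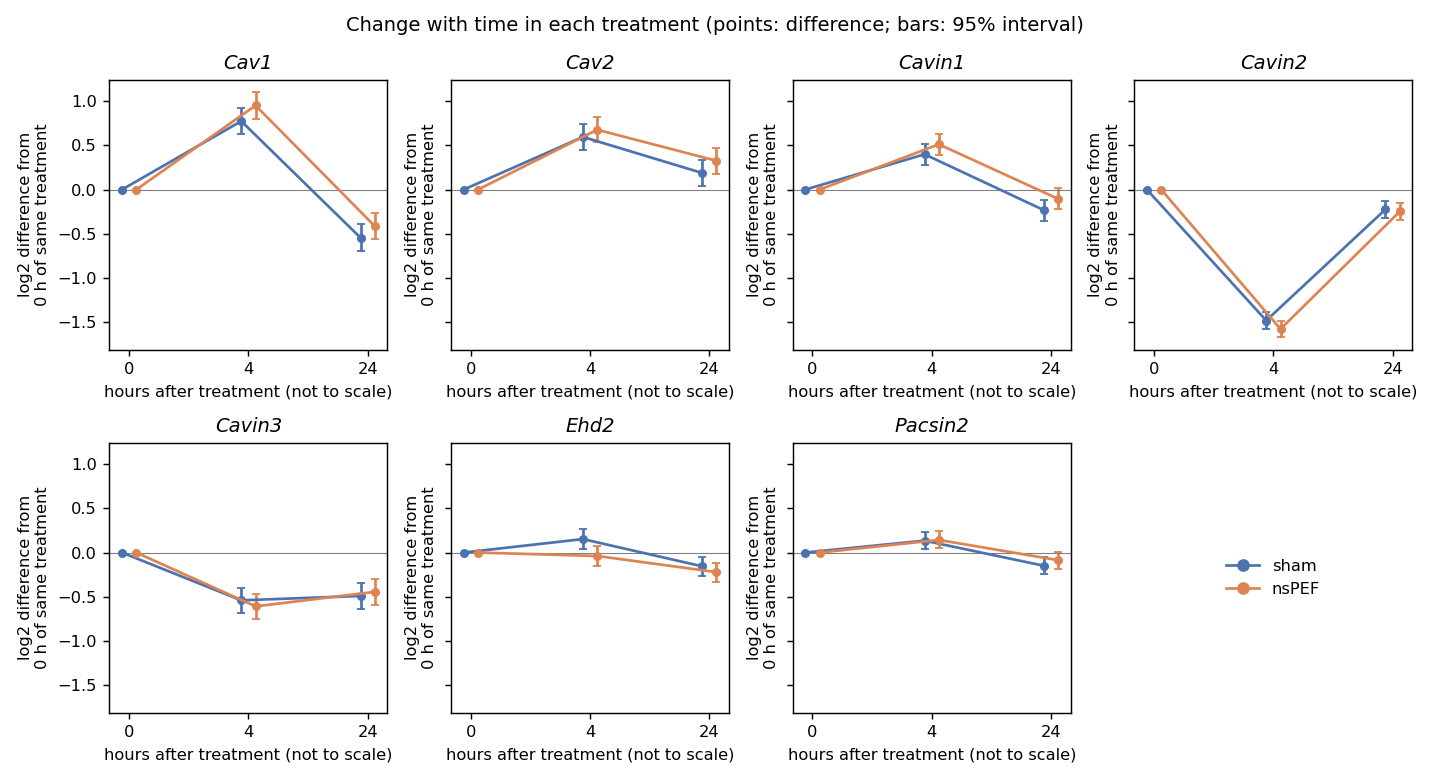
Difference of each caveolae gene from 0 h of the same treatment on the log2 scale, at 4 and 24 h after sham or nsPEF, with 95% intervals from limma over 4 arrays per group; the time axis is not to scale. Cavin2 drops by 1.48 in sham and 1.58 in nsPEF cells at 4 h and is close to its start at 24 h, while Cav1 rises by 0.77 and 0.95 and then ends below its start.

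The other comparisons with time gave counts that again follow the wide background. From 0 to 24 h in sham cells all 7 members were called, Cav2 higher and the other 6 lower, where 38.6% of all tested genes were called (15.7% higher and 22.8% lower), and with spike-in scaling, which raised the median of all tested probes in this comparison to 0.65, each of those 6 was above its 0 h level. From 4 to 24 h in sham cells 6 members were called, Cavin2 higher and 5 lower, against 65.5% of all tested genes (31.7% higher and 33.8% lower). In nsPEF cells 6 members were called from 0 to 4 h, 4 higher and 2 lower, against 67.7% (34.8% higher and 33.0% lower). From 0 to 24 h in nsPEF cells 5 were called, Cav2 higher and 4 lower, against 45.8% (24.3% higher and 21.5% lower). From 4 to 24 h in nsPEF cells all 7 were called, both Cavin2 and Cavin3 higher and 5 lower, against 63.4% (31.7% higher and 31.7% lower). The nsPEF and sham series are different samples, but within a treatment the 3 comparisons share groups.

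Ordered by mean, the groups of Cav1 ran E4 (2.33), S4 (2.27), S0 (1.50), E0 (1.38), E24 (0.97) and S24 (0.95), where neighbours of the same time point overlapped and neighbours of different time points did not. The order of Cavin2 was E0 (6.05), S0 (6.04), S24 (5.82), E24 (5.80), S4 (4.56) and E4 (4.47), and only the neighbours E0 and S0, and S24 and E24, overlapped. For Cavin1 the order was E4 (7.29), S4 (7.21), S0 (6.81), E0 (6.77), E24 (6.67) and S24 (6.57), with overlap from S0 down to S24 between each pair of neighbours. Cav2 ran S4 (3.59), E4 (3.55), E24 (3.20), S24 (3.18), S0 (2.99) and E0 (2.87), and the gap between E4 and E24 was the single one without overlap. Cavin3 ran S0 (3.66), E0 (3.58), S24 (3.17), E24 (3.13), S4 (3.12) and E4 (2.97), again with a single gap, between E0 and S24. Ehd2 ran S4 (2.09), E0 (1.97), S0 (1.94), E4 (1.93), S24 (1.78) and E24 (1.75), with gaps after S4 and after E4. For Pacsin2, which ran S4 (5.34), E4 (5.26), S0 (5.20), E0 (5.12), S24 (5.06) and E24 (5.03), every pair of neighbours overlapped.

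The levels of some other cell type genes moved with time too, on the linear scale relative to the 75th percentile. The summed signal of the 4 fibroblast genes, of which Thy1 was not above background on any array, was between 398.6 and 417.5 in S0 and between 224.4 and 248.0 in S4. The 3 smooth muscle and peritubular genes summed to between 28.5 and 36.0 in S0 and between 45.5 and 57.7 in S4, a rise carried by Acta2. On the log2 scale the mean of Acta2 went from 5.00 in S0 to 5.72 in S4. The dim genes Myh11 and Des went from −4.59 to −4.47 and from −3.67 to −4.26. The 4 epithelial genes summed to between 1.82 and 2.08 in S0 and between 6.80 and 7.49 in S4, with Epcam and Cdh1 above background on 2 and 1 of the 24 arrays. The 3 macrophage genes, of which Ptprc and Adgre1 were each above background on 1 array, summed to between 1.32 and 1.55 in S0 and between 3.90 and 4.74 in S4. The 4 endothelial genes summed to between 0.139 and 0.156 in S0, between 0.115 and 0.117 in S4 and between 0.181 and 0.235 in S24. Of these only Pecam1 was above background, and Cdh5, Tek and Kdr were not on any array. The part of these changes in the caveolae genes was not tested. All samples are bulk RNA of the single line TM3, so the sums are levels of marker genes and not counts of cell types. In such samples a change in RNA per cell and a change in the share of cells that express a gene cannot be told apart.

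The second question was whether the pulses changed the caveolae genes. None of the 7 passed the threshold of an adjusted p of 0.05 in limma at 0 h, at 4 h, at 24 h or over all time points. None passed it either in the test of the interaction, a treatment effect that differs between the time points. At an unadjusted p under 0.05 the numbers were 0, 2, 0, 2 and 0 in these 5 tests. Over all tested genes 0.101% were called at 0 h, 4.03% at 4 h, 5.74% at 24 h, 10.1% over all time points and 0.428% in the test of the interaction, so at these shares 0 calls among 7 genes are close to the background. The differences were small, with medians of −0.08 at 0 h, −0.08 at 4 h and −0.02 at 24 h for the members, against −0.04, −0.02 and 0.01 over all genes tested. By the brightest probe of each member, the 95% intervals stayed within 0.27 on the log2 scale at 0 h, 0.29 at 4 h and 0.21 at 24 h. For these probes and this scaling that is a change of at most 1.20-fold, 1.22-fold and 1.16-fold in either direction. Some other probes had wider intervals, reaching 0.57 at 0 h for the dim second Cavin1 probe. For Cav2 they reached −1.10 at 4 h for the dimmest probe and −0.32 at 24 h for the second.

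**Figure D3:**
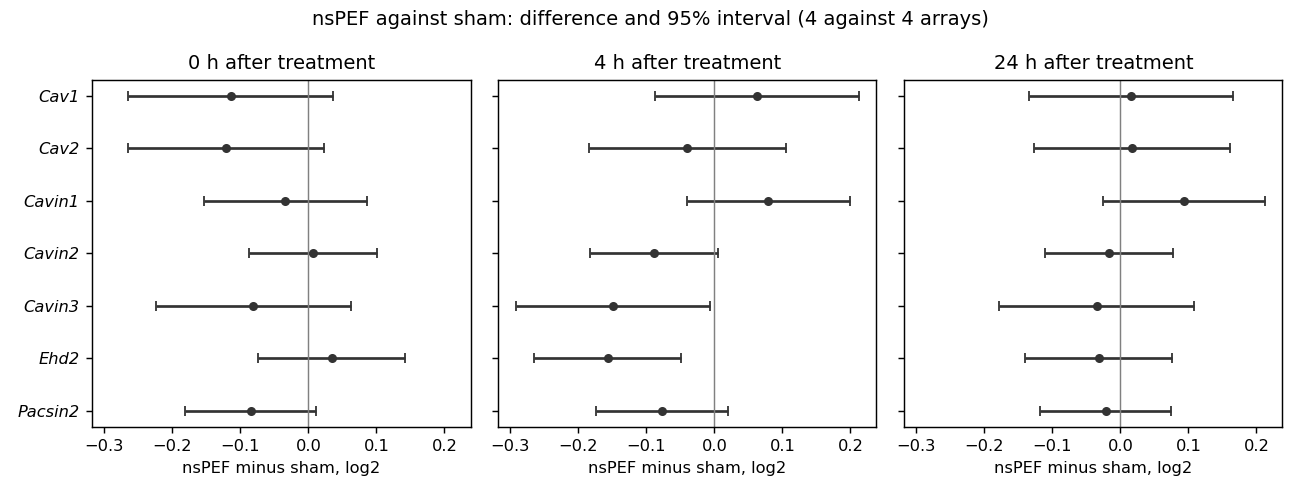
Difference between nsPEF and sham cells for the 7 caveolae genes at 0, 4 and 24 h, as log2 difference with the 95% interval of limma (4 against 4 arrays). The intervals of Ehd2 and Cavin3 at 4 h lie below 0 and all others include 0, and no adjusted p is under 0.05, the lowest being 0.0951 for Ehd2 at 4 h.

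Ehd2 came closest. At 4 h its nsPEF values of 2.03, 1.96, 1.90 and 1.84 all lay below the sham values of 2.18, 2.08, 2.05 and 2.04, a difference of −0.16 ± 0.05 (SE; 0.897-fold; adjusted p = 0.0951, limma). With the deposited log2 values the difference was −0.18 (adjusted p = 0.0475, limma), and with marked spots kept it was also −0.18 (adjusted p = 0.0487, limma), both past the threshold. At 0 h and 24 h the Ehd2 difference was 0.03 and −0.03, and the test of the interaction gave an adjusted p of 0.302 (limma).

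At 4 h the nsPEF and sham arrays were also apart for Cavin2, lower by 0.09 on the log2 scale after nsPEF, and for Cavin1, higher by 0.08. For these 2 genes and Ehd2 the two-sided exact permutation test over the 8 arrays gave p = 0.0286, the smallest that its 70 splits allow, before any adjustment for the 21 such tests of the members. By limma the adjusted p values were 0.266 for Cavin2 and 0.444 for Cavin1, while with spike-in scaling Cavin1 was 0.23 higher and called (adjusted p = 0.04, limma), where the median of all tested probes moved to 0.16 and Cavin1 stood 0.07 above that median. Cavin3 was 0.15 lower at 4 h (adjusted p = 0.22, limma) with overlapping arrays. Without S4 replicate 4, its lowest array, the Cavin3 difference was −0.24 (adjusted p = 0.0152, limma), and this was the single call among the members when 1 array was left out at 4 h. The remaining members at 4 h were Cav1 at 0.06, Cav2 at −0.04 and Pacsin2 at −0.08.

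At 0 h the differences ran from −0.12 for Cav2 to 0.03 for Ehd2, and at 24 h from −0.03 for Cavin3 to 0.09 for Cavin1. The second probes of Cav1, Cav2 and Cavin1 were not called in any of these tests either. Centring the values by array row left all 7 members called at 4 h, from −0.56 for Cavin3 to −0.27 for Cav1 and Cavin1, but the same step moved the median of all tested probes to −0.33, so that 52.2% of all probes were called. After a further shift of each array to its 75th percentile 0 members were called at 4 h.

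The brighter Cavin1 probe is printed at 10 places on each array, which allows a look at the measuring error within an array. The SD of the 10 spots ran from 0.064 to 0.138 over the 24 arrays on the log2 scale. At 0 h the mean nsPEF value was below sham at all 10 spots, by 0.0014 to 0.077, whereas at 4 h it was above sham at all 10, by 0.017 to 0.117, and at 24 h also at all 10, by 0.041 to 0.158. These spots measure the same RNA samples and are not replicates, and limma called no Cavin1 difference.

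**Figure D4:**
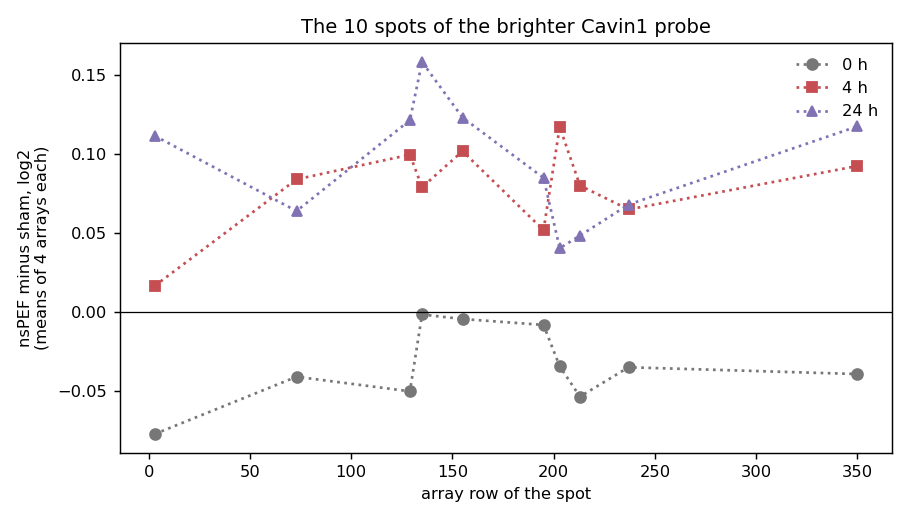
Mean nsPEF value minus mean sham value (4 arrays each, log2) at each of the 10 spots of the brighter Cavin1 probe, against the array row of the spot, with dotted lines that join the spots of a time point. All 10 differences are below 0 at 0 h and above 0 at 4 h and at 24 h, none larger than 0.158.

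Relatives and partners of the members were read in lists by role, each gene by its brightest probe, and their counts from 0 to 4 h in sham cells stand beside the 65.4% of all tested genes called there. Of the 6 tested genes of the caveolin, cavin, EHD and pacsin families outside the members, 5 were called from 0 to 4 h in sham cells, 3 higher and 2 lower, with a median of 0.18. Cavin4, the cavin known from muscle, rose by 1.49 (2.81-fold) and Ehd1, an ATPase of endosome recycling, by 0.53. Pacsin3 fell by 0.74 and Pacsin1, the pacsin best known from neurons, by 0.45. The muscle caveolin Cav3 did not pass the filter. None of the 6 was called between nsPEF and sham at any time point, and 0, 2 and 1 of them had an unadjusted p under 0.05 at 0, 4 and 24 h.

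Of 13 tested partners in the fission, tethering and signalling of caveolae, 8 were called from 0 to 4 h in sham cells, 4 in each direction, with a median of −0.02. The kinase gene Src, whose product phosphorylates caveolin-1, rose by 0.94 (1.92-fold). Sh3bp4 fell by 0.71 and the membrane fusion gene Snap23 by 0.59. At 24 h 2 of the 13 were called between nsPEF and sham, where 5.74% of all tested genes were. Fyn, another kinase of the Src family, was 0.23 lower (adjusted p = 0.0394, limma). The receptor gene Ror1 was called higher (adjusted p = 0.0335, limma), well above background on 2 of 4 nsPEF arrays and on no sham array. It was 2.02-fold higher with sham signals raised to the detection limit, the lowest signal well above background on each array.

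Of 14 tested receptors and enzymes that are known to reside in caveolae, 11 were called from 0 to 4 h in sham cells, 5 higher and 6 lower, with a median of −0.26. The growth factor receptor gene Pdgfrb fell by 1.71 (0.306-fold) and the insulin receptor gene Insr by 0.89 (0.539-fold), whereas Tgfbr2 rose by 0.87 (1.82-fold). The potassium channel gene Kcnma1 was well above background on 2 arrays of S0 and none of S4, and 1.09-fold lower at 4 h with S4 signals raised to the detection limit. At 24 h 3 of the 14 were called lower after nsPEF than after sham, against 5.74% of all tested genes called in either direction, Pdgfrb by 0.33 (adjusted p = 0.021, limma), Tgfbr1 by 0.32 (adjusted p = 0.0479, limma) and Nos3, the endothelial nitric oxide synthase that caveolin-1 binds, by 0.23 (adjusted p = 0.0436, limma). Over all time points 2 of the 14 were called, 1 in each direction, where 10.1% of all tested genes were. The dim gene Kcnma1 was 1.11 ± 0.30 higher after nsPEF (adjusted p = 0.0285, limma). Scarb1, the receptor that takes up cholesterol esters from lipoproteins, was 0.10 lower (adjusted p = 0.028, limma).

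Flotillin domains and clathrin coats serve other uptake routes. All 11 tested flotillin and clathrin coat genes were called from 0 to 4 h in sham cells, 8 lower and 3 higher, with a median of −0.36, beside 65.4% of all tested genes called (30.8% higher and 34.6% lower). Flot1 and Flot2, the scaffold genes of flotillin domains, fell by 0.99 (0.503-fold) and 0.60 (0.658-fold), and the adaptor genes Ap2a2 and Ap2s1 by 0.50 and 0.44. At 24 h Flot1 was 0.19 lower after nsPEF (adjusted p = 0.0499, limma), and over all time points it was 0.11 lower (adjusted p = 0.0428, limma).

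Of 10 tested genes of microvilli and the membrane reserve, 5 were called from 0 to 4 h in sham cells, 4 higher and 1 lower, with a median of 0.10, and Vil1, Pls1 and Prom1 did not pass the filter. The actin regulator gene Eps8 rose by 1.67, and Msn and Ezr, which link actin to the membrane, by 0.71 and 0.36. The myosin gene Myo1a fell by 0.62. At 4 h the actin bundler gene Espn was the single call between nsPEF and sham (adjusted p = 0.0426, limma), on 2 of 4 nsPEF arrays and no sham array well above background. It was 3.03-fold higher after nsPEF with sham signals raised to the detection limit. Over all time points Espn was again the single call, 1.44 ± 0.41 higher (adjusted p = 0.036, limma), where 10.1% of all tested genes were called. The median of the negative control spots, a measure of the floor, lay at −7.49 to −6.88 on the sham arrays and at −6.86 to −5.89 on the nsPEF arrays on the same log2 scale, and the part of this floor in the calls of the dim genes Espn, Ror1 and Kcnma1 was not tested. None of the genes named here from the 5 lists with a call changed direction from 0 to 4 h or between nsPEF and sham with quantile, spike-in or array row scaling.

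**Figure D5:**
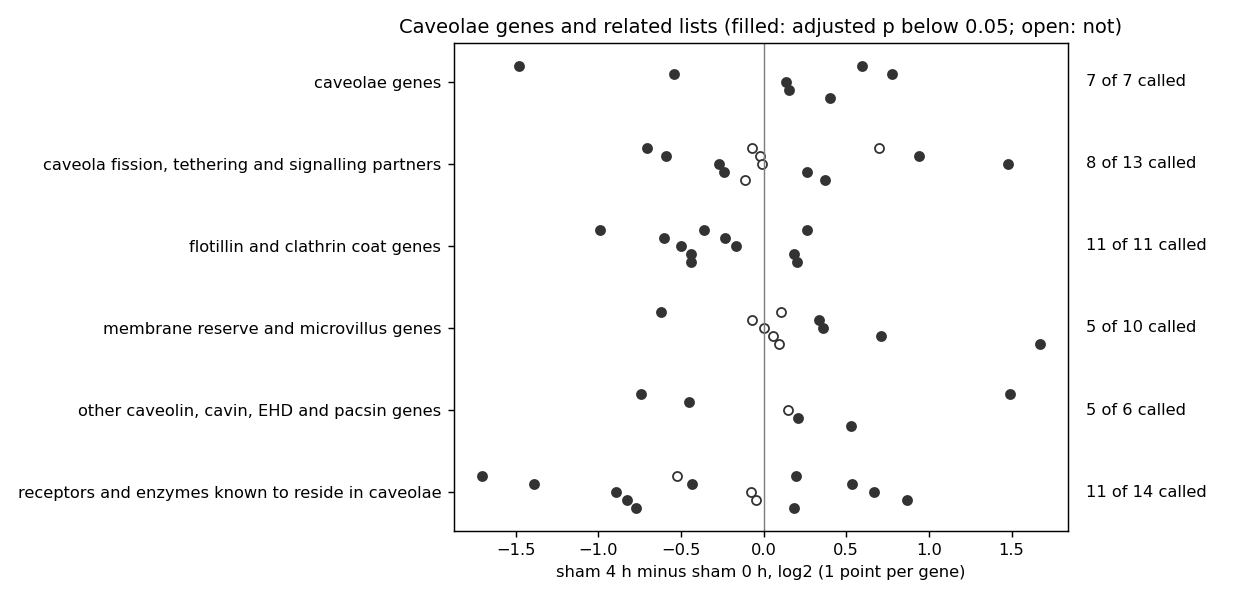
Difference between 4 h and 0 h in sham cells (log2, limma on 4 against 4 arrays) for the 7 caveolae genes and the tested genes of 5 related lists, with 1 point per gene, filled where the adjusted p was under 0.05 and open otherwise. Each list spreads to both sides of 0, and 65.4% of all genes tested were called in this comparison.

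Among 12251 genes that were well above background on all 24 arrays, the profiles most like each member were found by Pearson's r over the 24 arrays. These arrays fall into 3 time points on 3 slides, which all genes share, so r is a description of a common time course and carries no test. Cav1 was most like Mafk (0.990), Snhg1 (0.988) and Tmem125 (0.987), and Cavin2 was most like Zer1 (0.997), Ubald2 (0.996) and Pde6d (0.996). For Cavin1 the closest were Pdlim1 (0.987), Ehd1 (0.987) and Atf5 (0.985), of which Ehd1 belongs to the family list above. For Cav2 they were Elk3 (0.979), Cox11 (0.973) and 2510039O18Rik (0.972), and for Cavin3 they were Oat (0.975), Crip2 (0.975) and Rgs10 (0.967). Pacsin2 was most like Znrd1 (0.966), Frs2 (0.957) and Serp1 (0.954). Ehd2 had the weakest likeness, to Fnta (0.918), Pspc1 (0.901) and P4hb (0.901). No member was among the 3 genes closest to another member.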

How the data were processed

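Total RNA from 24 TM3 samples in 6 groups of 4 was measured on single-colour Agilent arrays of 62976 spots. The deposited scanner files hold intensity values that the authors extracted with Agilent Feature Extraction 12.0, per the submitters' processing notes and file headers, as background-subtracted and detrended processed signals. A deposited series table holds the authors' log2 values for 56745 rows, shifted to the 75th percentile and set to the median per the study's methods, and was used as an alternative. No column of it lacked a sample (0).

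Control spots (3671) and marked spots were left out, spots of a probe were averaged, and log2 of the processed signal minus the array's 75th percentile was taken with no pseudocount. No transcript spot was saturated (0). A probe was tested if well above background on at least 2 of 4 arrays of any group, which kept 37684 of 56605 probes. The group means of all 24 arrays were fitted in R 4.3.3 by the package limma, version 3.58.1, with Benjamini-Hochberg adjustment over all tested probes and a threshold of 0.05. Gene counts use the brightest tested probe of each of 16842 genes. The interaction is an F test. Where a dim gene was above background in 1 group only, the fold sets the other group's signals no lower than the detection limit, the lowest signal well above background on each array. This fold is a point estimate and not a lower bound.

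Named were all 7 members with every mapped probe, up to 4 called genes with the largest difference per list and comparison, and 3 genes per member by Pearson's r, except an item that is not reported here. The members, lists and tests were chosen with earlier results of these data known. Arrays were grouped by their labels. The closest pair within a group differed by a root mean square of 0.16 to 0.26 on the log2 scale over 24696 probes, so no array was a copy of another. The labels call the replicates biological but name no separate cultures, so the p-values measure the spread between these samples. Alternatives were quantile, spike-in, normexp and array row scaling, other filters, marked spots kept, the deposited values, the mean of probes, a replicate block, fits of 2 groups, a plain analysis of variance and leaving out arrays. The number of arrays limits the precision. The fits were tested on simulated data.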

Additional observations from a re-analysis of the deposited data

Results flagged for a closer look

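Of 66 groups of 4 arrays over the 11 probes of the members, 65 had a value on every array and were examined. Of these, 6 held an array that stood far from the other 3, where chance gives about 1 in 20 groups. The brightest Cav2 probe was 3.76 on S4 replicate 1 and at most 3.55 on the other arrays of that group. Cavin2 was 4.40 on E4 replicate 1, below the 4.49 to 4.51 of the others, and Ehd2 was 1.89 on E24 replicate 1, above 1.69 to 1.71. The other 3 came from dim probes. The dimmest Cav2 probe was −1.86 on E0 replicate 3, against −4.41 to −4.07 on the others. The second Cavin1 probe was −2.31 on S0 replicate 3, against −2.70 to −2.64, and −2.10 on E24 replicate 3, against −3.05 to −2.92.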

How the results depend on the processing

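Time and slide, and treatment and place on the slide, cannot be told apart, and the folds of dim probes rest on the detection limit. The changes of Cavin2 from 0 to 4 h and from 4 to 24 h kept their direction and call under all 26 alternatives in both treatments. Spike-in scaling moved the median of all tested probes by 0.65 and 0.45 from 0 to 24 h and by 0.62 and 0.33 from 4 to 24 h in sham and nsPEF cells, and turned directions. From 0 to 24 h in sham cells the turned values were 0.11 (Cav1), 0.42 (Cavin1), 0.43 (Cavin2), 0.16 (Cavin3), 0.50 (Ehd2) and 0.50 (Pacsin2), with Cav1 and Cavin3 not called. In nsPEF cells they were 0.29 (Cavin1), 0.14 (Cavin2), 0.17 (Ehd2) and 0.31 (Pacsin2), with Cavin2 and Ehd2 not called. From 4 to 24 h they were 0.20 (Cav2), 0.30 (Ehd2) and 0.32 (Pacsin2) in sham cells. In nsPEF cells they were 0.0062 (Cav2), 0.17 (Ehd2) and 0.13 (Pacsin2), none of them called. Pacsin2 in nsPEF cells turned to −0.042 from 0 to 4 h and 0.0016 from 4 to 24 h with quantile scaling and to −0.033 from 0 to 4 h with array row centring, and Cavin1 to −0.83 from 0 to 4 h with the mean of its probes. That mean lacked the dim Cavin1 probe on E0 replicate 1 and had it on the other E0 arrays. Array row centring, which moved all probes, turned Cavin1 and Cav1 between nsPEF and sham to −0.27 and −0.27 at 4 h and −0.15 and −0.22 at 24 h, and Cavin1 to −0.20 over all time points. It gave 1, 7, 6 and 7 called members at 0 h, 4 h, 24 h and over all time points and 4 for sham 24 h against 0 h. With a further shift to the 75th percentile, an alternative chosen after seeing the data, 1 member was called over all time points (Cavin3, −0.16, adjusted p = 0.0331, limma). Quantile scaling left 3 members called for sham 24 h against 0 h and lost Cavin1 (−0.06), Cavin2 (−0.07), Ehd2 (−0.12) and Pacsin2 (−0.03). Spike-in scaling gave 3 called members for nsPEF 24 h against 0 h, 4 for nsPEF 24 h against 4 h and 1 for nsPEF against sham at 4 h. Keeping marked spots called 1 member at 4 h and 1 over all time points, and so did the deposited values (1 and 1), where the latter call was Pacsin2 at −0.08. Leaving out arrays or replicate numbers gave 0 to 0 called members between nsPEF and sham at 0 h, 0 to 1 at 4 h, 0 to 0 at 24 h, 0 to 1 over all time points and 0 to 0 for the interaction. For sham it gave 5 to 7 (4 h against 0 h), 4 to 7 (24 h against 0 h) and 6 to 6 (24 h against 4 h), and for nsPEF 5 to 6, 4 to 6 and 5 to 7. The 0 h to 24 h count in sham was 4 without replicate 2, 3 or 4 of all groups. Without S4 replicate 4, Cavin3 was called between nsPEF and sham at 4 h (−0.24, adjusted p = 0.0152, limma) and over all time points (−0.12, adjusted p = 0.0123, limma). With the replicate block the nsPEF count from 4 to 24 h was 6, as Cavin3 (0.16, adjusted p = 0.0527, limma) was lost, and no other count changed. Same-numbered sham and nsPEF arrays correlated at −0.159 to 0.289, with 7 of 12 over 0.1 and 5 closest to their own number. The study's discussion puts the tests of a biological replicate, except an adhesion test, on a shared cell suspension. It does not tie this to the numbers, so whether the numbers pair the arrays is not settled. Over all differences of the members 2068 alternatives kept direction and call, 87 lost the call, 32 gained it and 25 turned. The cause of these shifts was not tested.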
